A study of Zea mays with 4 samples.

Results

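A small RNA table of maize roots held 255 predicted candidate microRNAs (miRNAs) among 576 entries, and the 38 candidates described here were chosen by their measured values, namely a level above 0 in each of 4 root libraries. The other 321 entries were known miRNAs, 171 of them listed in all 4 libraries. The plants were maize (Zea mays) of the cultivar Zhengdan 958 kept in Hoagland's nutrient solution, and 1 cm tips were cut from the roots for each library. Tips of the primary root were taken at 3 days (PRY) and again at 15 days (PRO) after germination. Seminal roots (SR) were taken at 7 days and crown roots (CR) at 15 days. PRY, SR and CR roots were 3 to 5 cm long, and the labels give no length for PRO. Ages are those of the seedling, not of the root. Primary and seminal roots form in the embryo, and crown roots arise from the shoot. Root type and age therefore changed together in most comparisons. No group had a replicate, so no test across replicates was possible, and each difference compares 2 libraries. The table holds miRNAs alone, so the tissue could not be checked against marker genes. In bulk tips, fewer cells of a type and less RNA per cell cannot be told apart.

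Plants make miRNAs by cutting short duplexes out of hairpin transcripts with the nuclease DCL1. The mature strand is loaded into an ARGONAUTE protein and directs cleavage or repression of matching transcripts. Families kept across land plants are usually abundant and target transcription factors, among other transcripts. Many miRNAs predicted from a single species have low levels, and their targets are often not known.

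The candidates are numbered Cand01 to Cand38 by falling mean level. These numbers are ranks made for this description and are not the names in the authors' table, which are not printed. Sequences, hairpins and genome positions of the candidates were not analysed here, so neither seeds nor shared precursors could be compared. Levels are in RPM, reads for every 1000000 reads of a library total. The totals recovered from the values were 10721082 to 11572637 reads, and 1 read was worth 0.0864 to 0.0933 RPM.

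Listing in a library followed a minimum. The lowest listed candidate had 5 reads in each of the 4 libraries, while known miRNAs were listed from 1 read upward, with 44 to 63 of them below 5 reads per library. A candidate at 0 may therefore have had reads below that minimum. The running numbers in the authors' names followed the libraries: numbers 1 to 130 were the 130 candidates listed in PRY, 131 to 168 the 38 first listed in PRO, 169 to 210 the 42 first listed in SR, and 211 to 255 the 45 first listed in CR. All 38 candidates described here therefore carry numbers from the first series, between 4 and 127.

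Of the remaining candidates, 25 were listed in 3 libraries, 36 in 2 and 156 in 1. The median highest value was 4.57 RPM for the 38 candidates, 1.3 RPM for those listed in 3 libraries, 1.11 RPM for 2 and 0.739 RPM for 1. A higher level passes the listing minimum in more libraries, so these medians follow in part from the rule itself. At the edge of the rule, Cand13, Cand36 and Cand37 had 5 reads in their lowest library and Cand38 had 6. Just outside it, 1 candidate was at 0 in PRY and at 16.3 RPM in PRO, 14.3 in SR and 17.7 in CR. Another was at 0 in PRO, with 5.41 RPM in PRY, 0.519 in SR and 0.549 in CR. One more was at 0 in CR, with 4.01 RPM in PRY, 4.88 in PRO and 3.72 in SR.

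The 38 candidates held 86.9% of all candidate reads in PRY (95% exact binomial interval 86.2 to 87.6), 95.7% in PRO (95.4 to 96.0), 89.6% in SR (89.1 to 90.2) and 90.3% in CR (89.9 to 90.8). Against reads of all distinct miRNA entries, where same-family entries with the same values count as 1, their share was 0.230, 0.694, 0.507 and 0.885% in PRY, PRO, SR and CR. These intervals and those below cover counting error alone and no spread between libraries. Reads copied by PCR and lacking molecular tags may repeat 1 molecule, in which case the intervals are too narrow. The rule favours candidates of higher level, and the 38 made up most of the candidate reads in each library. Of the miRNA reads they made up under 1% in each.

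Levels spanned more than 3 orders of magnitude, from 0.432 RPM for Cand36 in SR to 1365 RPM for Cand01 in PRO. Their median was 3.68, 2.31, 3.07 and 3.34 RPM in PRY, PRO, SR and CR. The 121 distinct known entries listed in all 4 libraries had medians of 14.4, 14.4, 7.95 and 7.69 RPM in the same order. By mean level 11 candidates reached 10 RPM, 12 lay between 2 and 10, and 15 lay below 2. Cand01 ranked at position 19 among the 450 distinct entries of the table, with 18 distinct known entries listed in all 4 libraries above it, and Cand02 ranked at position 31. Of those 121 known entries, 42 had a mean below the median of the candidates' means, 3.30 RPM.

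**Figure D1:**
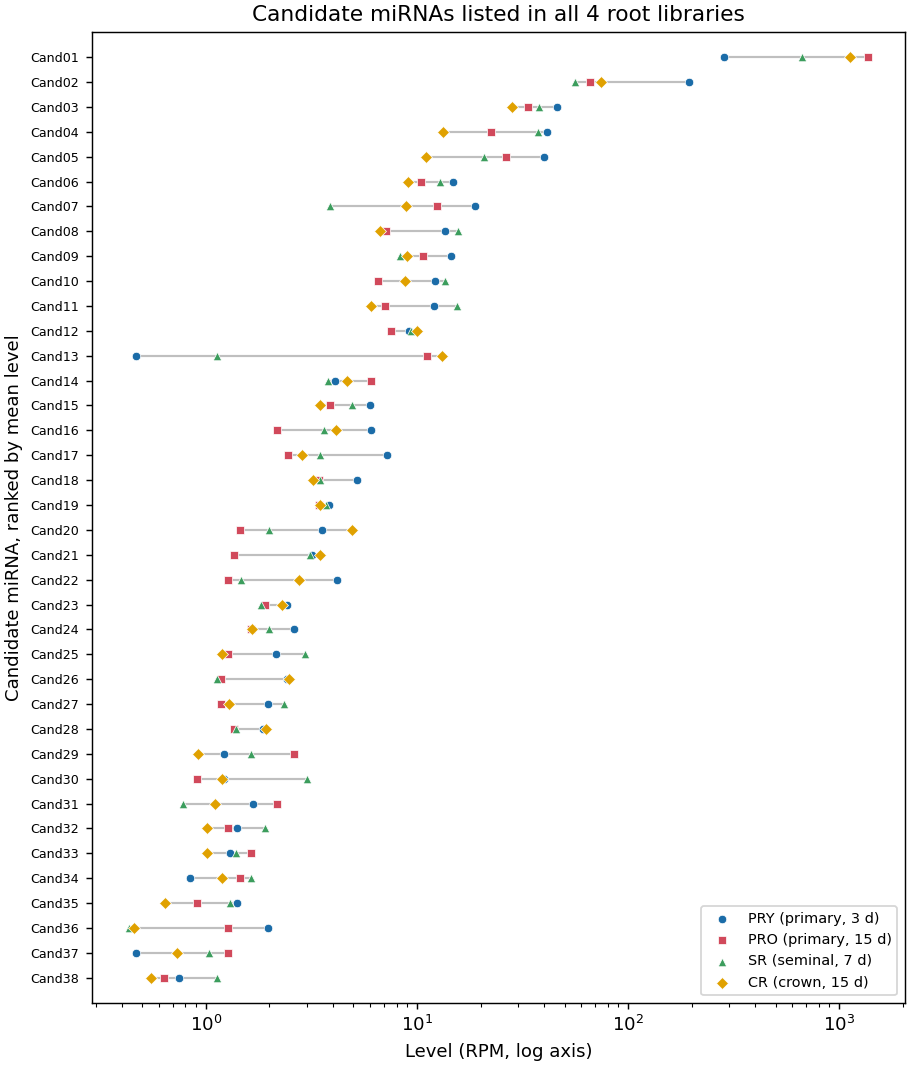
Level of each of the 38 candidates (rows, ranked by mean) in RPM on a log axis; the 4 symbols are the 4 libraries, 1 each, and the grey line joins the lowest and the highest. Cand01 stands apart at 286 to 1365 RPM, and 26 candidates stay below 10 RPM in every library.

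Cand01 dominated the set. It stood at 286 RPM (PRY), 1365 (PRO), 669 (SR) and 1122 (CR), on 3063, 15091, 7738 and 12249 reads. PRY was the low library, and both 15-day libraries lay above SR. Reads were 4.78-fold higher in PRO than in PRY (exact conditional binomial interval 4.59 to 4.97), 3.93-fold higher in CR (3.77 to 4.09) and 2.34-fold higher in SR (2.24 to 2.44). PRY was lowest under each of 4 scalings of the libraries, while PRO was highest with the library total and with TMM factors, and CR with the miRNA total and with DESeq2 size factors. PRO was 2.04-fold above SR (1.99 to 2.10), and CR was 1.68-fold above SR (1.63 to 1.73) but level with SR under TMM factors, at 910 against 907 RPM.

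A share within the set depends on no scaling. Cand01 held 37.0% of the set's reads in PRY (95% exact binomial interval 36.0 to 38.1), 83.5% in PRO (83.0 to 84.0), 69.9% in SR (69.0 to 70.8) and 81.7% in CR (81.1 to 82.3). The summed level of all 38 was 771 RPM in PRY (exact Poisson interval 755 to 788), 1634 in PRO (1611 to 1658), 957 in SR (939 to 975) and 1373 in CR (1351 to 1395). Without Cand01 the sum was 486, 270, 288 and 251 RPM in PRY, PRO, SR and CR, so PRY moved from the lowest sum to the highest. PRY then lay 1.69-fold above SR (1.61 to 1.76), 1.80-fold above PRO (1.72 to 1.89) and 1.93-fold above CR (1.85 to 2.03). Cand02 made up much of this excess, giving 194 RPM of the PRY sum but only 55.9 to 74.5 RPM of the other sums. With TMM factors or DESeq2 size factors PRY was still the highest sum without Cand01, at 400 and 408 RPM. SR was nearly level with PRY under TMM, at 390 RPM, and stood at 339 RPM with DESeq2 factors. Under both, the lead of the PRY sum over SR was smaller than the lead of Cand02 alone, so it rests on Cand02. Scaled to the miRNA total, PRY was not the highest sum, with 318 RPM (PRY), 251 (PRO), 335 (SR) and 355 (CR).

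Cand02 ran the other way. Its level was 194, 66.1, 55.9 and 74.5 RPM in PRY, PRO, SR and CR. PRY was the high library under each of 4 scalings, and PRO, SR and CR lay close together by the library total. The log2(RPM + 1) difference of CR from PRY, -1.37, was -0.26 with the miRNA total, so that CR then lay nearer to PRY. Reads in PRY were 3.46-fold above SR (3.17 to 3.79), 2.93-fold above PRO (2.69 to 3.19) and 2.60-fold above CR (2.39 to 2.82). Within a library the ratio of Cand01 to Cand02 needs no scaling. It was 1.48 in PRY (1.40 to 1.56), 20.6 in PRO (19.2 to 22.3), 12 in SR (11 to 13) and 15.0 in CR (14.0 to 16.2).

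Among candidates of lower level, Cand13 had the widest range of the set. It had 5, 124, 13 and 144 reads in PRY, PRO, SR and CR, which is 0.466, 11.2, 1.12 and 13.2 RPM. Both 15-day libraries stood well above both younger ones under each of 4 scalings. CR lay 28.3-fold above PRY (11.8 to 88.4) and 11.7-fold above SR (6.65 to 22.6), while the ratio of CR to PRO was 1.18 (0.918 to 1.51), within counting error. The 5 reads in PRY are at the listing minimum, so the rule nearly left Cand13 out.

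Cand03, Cand04, Cand05 and Cand06 were highest in PRY and lowest in CR by the library total, and PRY stayed highest under all 4 scalings in Cand05 alone of them. Cand03 stood at 46.1 RPM (PRY), 33.5 (PRO), 38.0 (SR) and 28.2 (CR), and PRY exceeded CR by 1.63-fold (1.41 to 1.89). Cand04 stood at 41.2, 22.4, 37.6 and 13.3 RPM in the same order, with PRY and SR close together and CR apart from both. PRY exceeded CR by 3.10-fold (2.57 to 3.77) and SR exceeded CR by 2.83-fold (2.34 to 3.44). Cand05 was lower in each library of the usual order than in the one before, with 40.1, 26.5, 20.7 and 11 RPM in PRY, PRO, SR and CR. PRY exceeded CR by 3.65-fold (2.97 to 4.51) and PRO exceeded CR by 2.41-fold (1.94 to 3.01). Cand06 stood at 14.8, 10.5, 12.9 and 9.07 RPM, with PRY 1.64-fold above CR (1.26 to 2.12). Under each of 3 other scalings SR lay above PRY in Cand03, Cand04 and Cand06, so their library order is not kept. Scaling to the miRNA total raises SR relative to PRY by 0.83 and CR by 1.11 on the log2 scale.

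In Cand07 and Cand09 the seminal root was the low library by the library total, and PRY, their highest, was not highest under all 4 scalings. Cand07 stood at 18.9 RPM (PRY), 12.4 (PRO), 3.89 (SR) and 8.88 (CR). Its level in PRY was 4.87-fold above SR (3.51 to 6.88), and its level in PRO was 3.19-fold above SR (2.26 to 4.57). Cand09 varied little, with 14.6, 10.7, 8.30 and 8.97 RPM in PRY, PRO, SR and CR, and PRY was 1.75-fold above SR (1.35 to 2.29). Its ratio to SR was 1.08 in CR (0.808 to 1.45) and 1.29 in PRO (0.974 to 1.70), both within counting error.

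Cand08, Cand10 and Cand11 shared a profile in which both younger libraries stood above both 15-day ones, an order not kept under all 4 scalings. Cand08 stood at 13.5 RPM (PRY), 7.14 (PRO), 15.6 (SR) and 6.68 (CR). Cand11 stood at 12, 7.05, 15.5 and 6.04 RPM in the same order, and Cand10 at 12.2, 6.51, 13.6 and 8.79. SR was the highest library of each under all 4 scalings. SR exceeded PRO by 2.19-fold in Cand08 (1.67 to 2.89), by 2.19-fold in Cand11 (1.67 to 2.90) and by 2.08-fold in Cand10 (1.57 to 2.79).

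Cand08 and Cand11 were also alike in level. Their ratio was 1.12 in PRY (0.881 to 1.44), 1.01 in PRO (0.731 to 1.40), 1.01 in SR (0.818 to 1.25) and 1.11 in CR (0.782 to 1.57). Among 66 pairs of the 12 candidates that reached 10 RPM, 2 pairs had a ratio whose interval held 1 in every library, Cand08 with Cand11 and Cand08 with Cand10. This comparison was chosen after the values were seen. Whether the paired entries share reads was not tested.

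**Figure D2:**
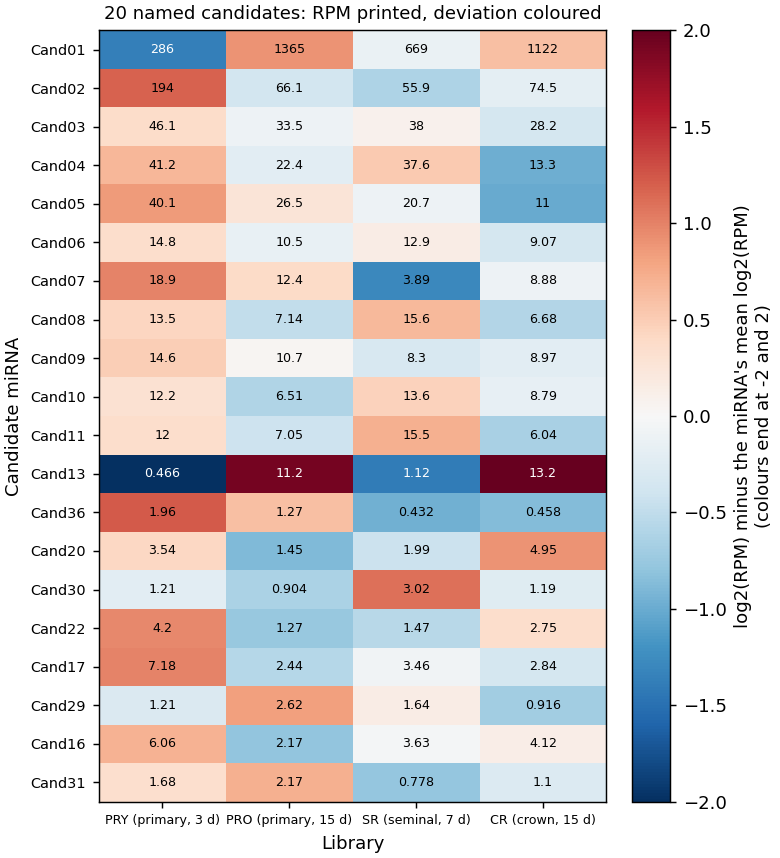
RPM of the 12 candidates that reached 10 RPM in a library and of 8 lower ones with the largest ratios (rows) in the 4 libraries (columns); the colour is log2(RPM) minus the candidate's own mean of log2(RPM), red for above and blue for below. Cand01 and Cand13 are blue in PRY, Cand02 and Cand17 are red in PRY, and Cand08, Cand10 and Cand11 are red in PRY and SR.

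Below 10 RPM, 8 candidates were singled out as having the largest ratio of highest to lowest library among those with at least 20 reads in the highest, and 5 of them were highest in PRY or CR. Cand16 stood at 6.06, 2.17, 3.63 and 4.12 RPM in PRY, PRO, SR and CR. Cand17 stood at 7.18 RPM (PRY), 2.44 (PRO), 3.46 (SR) and 2.84 (CR), so that PRY stood apart and the others overlapped within counting error. PRY exceeded PRO by 2.79-fold in Cand16 (1.73 to 4.67) and by 2.94-fold in Cand17 (1.88 to 4.74). Cand20 stood at 3.54, 1.45, 1.99 and 4.95 RPM in PRY, PRO, SR and CR, and CR exceeded PRO by 3.42-fold (1.93 to 6.40). In Cand22 the values were 4.20, 1.27, 1.47 and 2.75 RPM, and PRY exceeded PRO by 3.32-fold (1.79 to 6.54). Cand20 and Cand22 were thus higher in PRY and CR than in PRO and SR, under each of 4 scalings. In Cand22 the ratio of CR to SR was 1.87 (0.999 to 3.61), within counting error. Neither Cand16 nor Cand22 had the same highest library under all 4.

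Cand36 had its upper values in the primary root, with 1.96 RPM (PRY), 1.27 (PRO), 0.432 (SR) and 0.458 (CR). PRY exceeded SR by 4.53-fold (1.66 to 15.4) on 21 against 5 reads. Cand30 was high in SR alone, with 1.21, 0.904, 3.02 and 1.19 RPM in PRY, PRO, SR and CR, and SR exceeded PRO by 3.34-fold (1.62 to 7.57).

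Cand29 and Cand31 were highest in PRO. Cand29 stood at 1.21 RPM (PRY), 2.62 (PRO), 1.64 (SR) and 0.916 (CR), and PRO exceeded CR by 2.86-fold (1.36 to 6.59). Cand31 stood at 1.68, 2.17, 0.778 and 1.10 RPM, and PRO exceeded SR by 2.79-fold (1.25 to 6.82). Intervals at these depths span several-fold, so the sizes are loosely set.

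The other 18 candidates had means of 0.763 to 9.01 RPM and ratios of highest to lowest library of 1.11 to 2.71, with a median of 1.80. The interval of that ratio lay above 1 in 6 of these 18 and in 26 of all 38 candidates. Picking the extremes of 4 values favours such intervals. The 3 steadiest of the 18 are named here, after their values were seen. Cand12 stood at 9.14, 7.51, 9.42 and 9.98 RPM in PRY, PRO, SR and CR, and its largest ratio was 1.33 (0.990 to 1.79). Cand19 had the narrowest range of the set, with 3.82, 3.44, 3.72 and 3.48 RPM and a ratio of 1.11 (0.698 to 1.78). Cand23 stood at 2.43, 1.90, 1.81 and 2.29 RPM, with a ratio of 1.34 (0.723 to 2.50).

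Range across the roots was next set beside the known miRNAs. The median ratio of highest to lowest library was 2.27 over the 38 candidates and 2.65 over the 121 distinct known entries. A ratio of at least 2 was found in 23 of 38 candidates (60.5%) and in 85 of 121 known entries (70.2%). At means of 10 RPM or more the medians were 2.56 over 11 candidates and 2.32 over 66 known entries. Between 2 and 10 RPM they were 2.14 over 12 candidates and 2.73 over 25 known entries, with a ratio of at least 2 in 50% and 64%. Below 2 RPM they were 2.18 over 15 candidates and 5.49 over 30 known entries. Known entries are listed from 1 read and candidates from 5, which limits how far a low candidate's ratio can reach.

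On the log2(RPM + 1) scale, where the pseudocount of 1 RPM understates ratios of low miRNAs, 8 of the 12 candidates that reached 10 RPM spanned 1 or more, which is 2-fold. Of all 103 entries that reached it, the candidates included, 63.1% did so, a share close to that of the candidates.

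**Figure D3:**
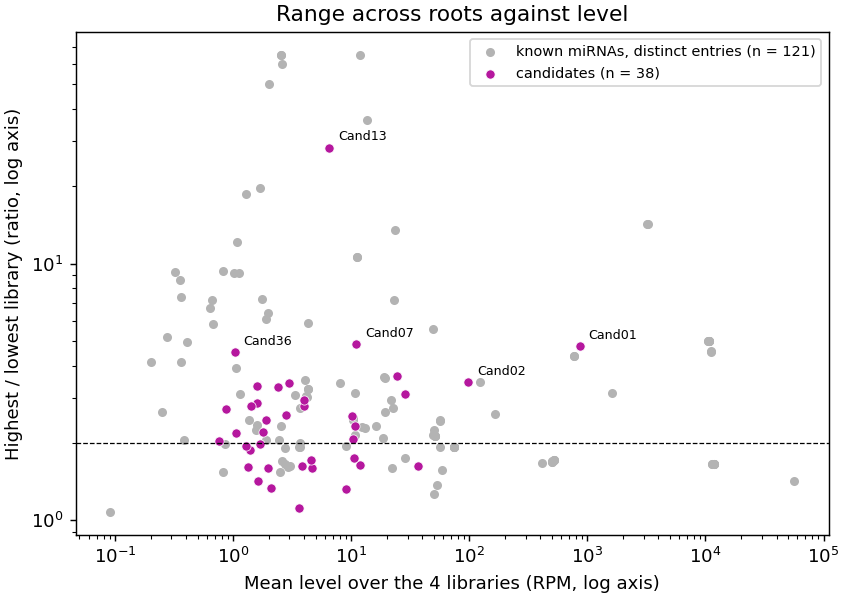
Ratio of the highest to the lowest library against the mean level in RPM, both on log axes, for the 38 candidates and the 121 distinct known entries listed in all 4 libraries; the dashed line marks a ratio of 2. At means of 2 to 10 RPM the candidates run from 1.11 (Cand19) to 28.3 (Cand13) and the known entries from 1.54 to 64.9, and below 2 RPM the known entries reach 19.6 and the candidates 4.53.

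Which library was highest differed between candidates. PRY was highest in 17 of 38, SR in 9, PRO in 6 and CR in 6. CR was lowest in 14, PRO in 12, SR in 8 and PRY in 4. Among the 121 known entries, PRY was highest in 51, PRO in 43, CR in 22 and SR in 5. PRY thus led in 44.7% of the candidates and in 42.1% of the known entries, while SR led in 23.7% and in 4.13%. These counts rest on the library total: the highest library was the same under 4 scalings in 17 of the 38, and the number highest in PRY went down to 4 when scaled to the miRNA total.

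Grouped by seedling age, both younger libraries, PRY and SR, lay above both 15-day ones in 17 of 38 candidates. The same held in 16.3% of the 209 entries listed in all 4 libraries and in 10.7% of the 121 distinct known entries. The 209 include the candidates themselves and count same-family entries with the same values separately. Shares of the 209 and of the known entries rest on the library total, and none was taken under another scaling. In 4 of those 17 candidates (Cand04, Cand08, Cand10 and Cand11), the lower younger value exceeded the higher 15-day value beyond counting error. The count of 17 dropped to 3 with the miRNA total and stayed within 1.5 times with TMM factors and with DESeq2 size factors. The opposite order, with both 15-day libraries above, held in 3 candidates, Cand01, Cand13 and Cand14, against 23% of the 209 entries, and in 2 with TMM factors and 5 with the miRNA total. Cand14 stood at 4.10 RPM (PRY), 6.06 (PRO), 3.80 (SR) and 4.67 (CR), and its order lay within counting error.

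Grouped by root type, both primary libraries lay above SR and CR in 5 candidates, Cand05, Cand07, Cand09, Cand31 and Cand36, against 28.2% of the 209 entries, and in 2 with the miRNA total and 3 with DESeq2 size factors. In Cand05 and Cand07 the order exceeded counting error by the library total, but neither kept it under all 4 scalings. Of the 5, Cand36 alone kept it under all 4, and there the order lay within counting error. SR and CR lay above both primary libraries in 1 candidate, Cand12, within counting error, against 1.91% of the entries. The candidates numbered 20 with the miRNA total and 8 with DESeq2 size factors, where no share of the entries was taken. The median log2 ratio of such entries also moved with the miRNA total, by 0.83 (SR) and 1.11 (CR) against PRY. PRY and CR were the upper libraries in 8 candidates (21.1%, against 16.5% of the known entries), and PRO and SR in 4 (10.5%, against 14.9%).

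**Figure D4:**
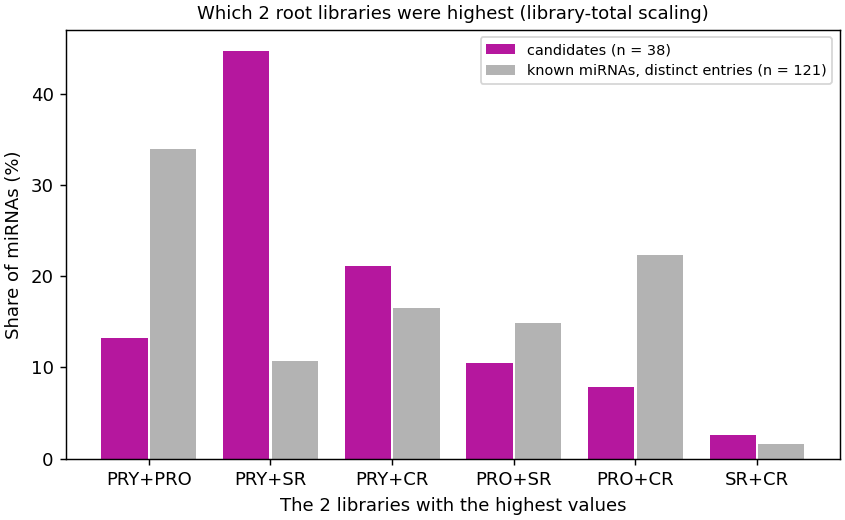
Share of miRNAs, in %, by which 2 libraries held the highest values (library-total scaling), for the 38 candidates and the 121 distinct known entries listed in all 4 libraries. PRY with SR was the most frequent pair among candidates, at 44.7% against 10.7% of known entries, and PRY with PRO among known entries, at 33.9% against 13.2%.

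The libraries were then compared in pairs over the whole table. Entries entered a pair if either library held 10 RPM or more, and a call of higher or lower needed a log2(RPM + 1) difference of at least 1. All entries compared include the candidates themselves and count same-family entries with the same values separately. Such a candidate may have passed the minimum only through the library where it was high. In PRO against PRY, 2 of 12 candidates were higher, Cand01 and Cand13, and 1 was lower, Cand02, while 18.6% of all 102 entries compared were higher and 16.7% lower. The median log2 difference was -0.58 over these candidates and -0.17 over all entries compared. The 3 calls concern the most abundant candidates and the one with the widest range.

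In SR against PRY, Cand01 was higher and Cand02 and Cand07 were lower among 11 candidates, and 17.8% of all entries were higher and 29.7% lower. The medians were -0.19 and -0.65. In CR against PRY, Cand01 and Cand13 were higher and Cand02, Cand04, Cand05 and Cand07 were lower among 12, against 16.8% and 24.8% of all entries. The medians were -0.79 and -0.64. None of the 4 lower calls in CR held with the miRNA total, where the differences were -0.26 for Cand02, -0.50 for Cand04, -0.72 for Cand05 and 0.02 for Cand07. With DESeq2 size factors Cand02 (-0.92) and Cand07 (-0.60) were lost as well. In SR against PRY, Cand02 was lost with the miRNA total (-0.95).

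Between the 15-day roots, CR against PRO, Cand05 was lower and none of 9 candidates was higher, against 28.4% and 3.16% of all entries. The call of Cand05 was lost with the miRNA total (-0.63) and with DESeq2 size factors (-0.84). The medians were -0.24 and -0.31. These 2 libraries come from seedlings of the same age and differ in root type. CR roots were 3 to 5 cm long and no length is given for PRO. Root age or stage may therefore differ as well, which was not tested. In CR against SR, Cand13 was higher and Cand04, Cand08 and Cand11 were lower among 10, against 6.52% and 18.5%. The calls of Cand08 and Cand11 held in 2 of 3 other scalings. The medians were -0.52 and 0.05. In SR against PRO, Cand08 and Cand11 were higher and Cand01, Cand07 and Cand13 were lower among 12, against 2.06% and 17.5%. Cand08 and Cand11 were themselves the only 2 of 97 entries called higher, so that share is no separate background. The medians were -0.03 and -0.34.

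Of these 22 calls, made on 8 candidates, 11 held under each of 3 other scalings and 1 held under none. The latter was the lower level of Cand01 in SR than in PRO, -1.03 with the library total and -0.61 to -0.73 with the others. With DESeq2 size factors Cand13 missed the minimum in PRO against PRY and in SR against PRO. Its differences there, 2.97 and -2.23, were still beyond 1. Comparisons that share a library are not independent of each other.

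Over all 38 candidates, with no minimum, the median log2 ratio of RPM was -0.60 in PRO against PRY, where 8 candidates were higher and 30 lower. In SR against PRO it was 0.20, with 24 higher and 14 lower, and in CR against PRY it was -0.58, with 10 higher and 28 lower. The remaining medians were -0.12 in SR against PRY, -0.28 in CR against SR and -0.13 in CR against PRO. The signs in SR against PRY, CR against PRY, CR against SR and CR against PRO turned under at least 1 other scaling, and those in PRO against PRY and SR against PRO did not. Their sizes moved, in PRO against PRY to -0.09 with the miRNA total, -0.18 with TMM and -0.53 with DESeq2 factors, and in SR against PRO to 0.52, 0.50 and 0.62.

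A gap between the candidates' median and that of the 121 known entries depends on no scaling. It was widest in SR against PRO, at 0.69. By the library total, 63.2% of candidates and 17.4% of known entries were higher in SR, and these shares do depend on the scaling. In PRO against PRY the candidates' median lay below the known one by a gap of -0.57, and in SR against PRY above it by 0.44. In CR against SR the gap was -0.36, in CR against PRY -0.19 and in CR against PRO 0.10. miRNAs of 1 library are not replicates, so these gaps describe the 4 libraries.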

How the data were processed

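Per the labels' protocols, a gel cut gave RNA of 18 to 30 nt, which received adapters and 18 cycles of PCR before it was read on a Solexa (Illumina) Genome Analyzer. For the aligner, the miRNA reference and the candidate prediction, the sources used here name no program. Per the file headers, the authors deposited relative expression levels called TPM. They were treated as RPM (reads for every 1000000 of a library total, normalized by the authors), since each deposited value was a whole multiple of 1 step per library. With totals from those steps, 100% of the values above 0 came out as whole reads within 0.01 read. What a total covers is not known.

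Ratios are of recovered reads over these totals, with exact intervals at 95%. The rule of size used log2(RPM + 1) and a minimum of 10 RPM. With 1 library per group no quasi-likelihood fit was possible, and edgeR and DESeq2 gave scaling factors only (TMM, edgeR 4.0.16; size factors, DESeq2 1.42.0; R 4.3.3). A further scaling used the total over distinct miRNA entries. Scaled totals kept their geometric mean. Named were candidates of 10 RPM or more in a library and up to 8 others with the largest ratio and 20 or more reads. Members, rules and alternatives were chosen with earlier results of these data known. Python 3.11.15, pandas 2.3.3, numpy 2.4.6, scipy 1.17.1 and matplotlib 3.10.9 were used.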

Additional observations from a re-analysis of the deposited data

How the results depend on the processing

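No paired analysis was possible because each group had 1 library. Beside the library total, other scalings moved the median log2 ratio of all entries listed in all 4 libraries by -0.74 to 1.11. The cause of each change below was not tested, except that a minimum changes how many candidates are compared.

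The calls per comparison were 3 in PRO against PRY, 3 in SR against PRY, 6 in CR against PRY, 4 in CR against SR, 1 in CR against PRO and 5 in SR against PRO. With no minimum they were 6 in PRO against PRY, 5 in SR against PRY and 2 in CR against PRO. With a minimum of 50 RPM they were 2 in CR against PRY, 0 in CR against SR, 0 in CR against PRO and 1 in SR against PRO. A pseudocount of 10 gave 2 in CR against SR, 0 in CR against PRO and 1 in SR against PRO. Calls on read intervals wholly beyond 2-fold gave 2, 0 and 2 in the same comparisons. The miRNA total gave 3 in CR against PRY and 0 in CR against PRO, TMM factors gave 8 in CR against SR and 2 in CR against PRO, and DESeq2 factors gave 0 in the latter. The 8 candidates with a 2-fold range became 14 with no minimum and 2 with 50 RPM.

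Candidates highest in PRY (17) numbered 4 with the miRNA total, 8 with TMM and 9 with DESeq2 factors. Those highest in SR (9) numbered 16, 23 and 18. Those highest in PRO (6) numbered 2 with the miRNA total and with DESeq2 factors, and those highest in CR (6) numbered 16 with the miRNA total and 2 with TMM. With the miRNA total, 5 candidates had both 15-day libraries above and 3 below, 2 had the primary libraries above and 20 below. Primary libraries were above in 3 with DESeq2 factors, and below in 2 with TMM and 8 with DESeq2 factors. A minimum of 10 reads in the highest library removed no candidate, so it tests nothing here.

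Summed levels were 486, 270, 288 and 251 RPM in PRY, PRO, SR and CR without Cand01, and 505, 1521, 1111 and 1941 with the miRNA total. Medians of the 38 turned sign in SR against PRY (0.71 with the miRNA total, 0.60 with TMM, 0.36 with DESeq2 factors), CR against PRY (0.53 with the miRNA total), CR against SR (0.0058 with the miRNA total) and CR against PRO (0.47 with the miRNA total, 0.25 with DESeq2 factors). The call of Cand07 in CR against PRY turned to 0.0182 with the miRNA total.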
